A study of Mus musculus with 18 samples.

Results

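The paired immunoglobulin-like receptors are a family of closely related mouse receptors of myeloid cells and B cells. Members were chosen by gene name from a list of 7 symbols, of which 5 matched a row among the 55414 gene rows of the count table through GENCODE M21. These were Pirb, Pira2, Lilra6, Lilra5 and Lilrb4a. Pira6 and Pira11 matched no row by symbol or synonym and have no value here. The list was drawn up with results of these data known, so the values of the members under PM2.5 are given as a description and carry no weight as evidence.

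Polyadenylated RNA was sequenced from wild type C57BL/6J mice in 2 experiments, one on whole spleen and one on macrophages isolated from spleen. The spleen experiment had 4 libraries from mice exposed to filtered air and 4 from mice exposed to PM2.5, fine airborne particles, for 30 days. The macrophage experiment had 5 libraries per exposure, also with a stated time of 30 days, and its description mentions filtered air after the air or PM2.5 exposure without saying for how long. The label CAP, which is not spelled out, was read as PM2.5. Macrophage PM2.5 replicate 1 is CAP by its title and its short description but air by its treatment tag, and was grouped by its title. The sources used here do not give the age or sex of the mice, the isolation method, or whether animals were pooled.

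Paired receptors are families in which near-identical outer domains are joined to opposite signals. PIR-A proteins, encoded by Pira2 and its neighbours, have short tails and signal through the adaptor FcRγ, the product of Fcer1g. PIR-B, encoded by Pirb, carries inhibitory tyrosine motifs in its tail that recruit the phosphatase SHP-1, the product of Ptpn6. Both kinds bind MHC class I molecules. Lilra5 and Lilra6 encode further activating receptors, and Lilrb4a encodes gp49B, an inhibitory receptor of myeloid and mast cells.

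Pirb (ENSMUSG00000058818) lies at chr7:3711409-3720391, Pira2 (ENSMUSG00000089942) at chr7:3836812-3845051 and Lilra6 (ENSMUSG00000030427) at chr7:3908280-3915503, all on the minus strand of GRCm38. Between and including Pirb and Lilra6 the annotation lists 9 receptor genes and pseudogenes. Lilra5 (ENSMUSG00000070873) lies on the plus strand at chr7:4237754-4243463, beyond that stretch. Lilrb4a (ENSMUSG00000112148) lies on another chromosome, at chr10:51490956-51496611 on the plus strand.

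The 250 bases before the RefSeq start of the chromosome 7 members (GRCm38.p6) are printed because the copies, whose counts differ widely, are nearly identical there. Capitals mark the letters GAGGAA on either strand (TTCCTC on the printed one), the core of many sites of ETS factors such as PU.1. The windows lie at chr7:3720383-3720632 (Pirb), chr7:3845052-3845301 (Pira2), chr7:3915502-3915751 (Lilra6) and chr7:4237504-4237753 (Lilra5), each written 5′ to 3′ on the strand of its gene.
Pirb: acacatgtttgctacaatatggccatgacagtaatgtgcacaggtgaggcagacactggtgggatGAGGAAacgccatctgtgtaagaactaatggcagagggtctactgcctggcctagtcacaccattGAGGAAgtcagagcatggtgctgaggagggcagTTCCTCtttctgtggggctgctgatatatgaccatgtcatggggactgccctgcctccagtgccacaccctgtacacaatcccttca
Pira2: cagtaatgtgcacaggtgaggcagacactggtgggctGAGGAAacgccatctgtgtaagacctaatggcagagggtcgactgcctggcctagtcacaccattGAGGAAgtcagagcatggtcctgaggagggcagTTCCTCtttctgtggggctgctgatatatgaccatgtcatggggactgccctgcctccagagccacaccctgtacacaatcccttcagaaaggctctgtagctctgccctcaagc
Lilra6: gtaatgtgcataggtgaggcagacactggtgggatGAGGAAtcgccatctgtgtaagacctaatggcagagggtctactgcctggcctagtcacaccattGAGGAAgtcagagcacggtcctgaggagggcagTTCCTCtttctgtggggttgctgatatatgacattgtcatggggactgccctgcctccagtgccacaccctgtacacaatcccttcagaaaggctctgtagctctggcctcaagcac
Lilra5: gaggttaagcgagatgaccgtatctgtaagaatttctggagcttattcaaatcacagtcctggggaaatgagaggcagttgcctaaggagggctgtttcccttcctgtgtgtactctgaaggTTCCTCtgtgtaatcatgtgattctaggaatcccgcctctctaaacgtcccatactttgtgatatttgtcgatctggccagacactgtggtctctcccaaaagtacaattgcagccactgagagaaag

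Pirb and Pira2, the inhibitory and the activating gene, were identical at 217 of 222 aligned positions of these windows, or 97.7%. Pirb and Lilra6 were identical at 96.4% of positions and Pira2 and Lilra6 at 96.0%. Lilra5 was identical to Pirb at 119 of 181 aligned positions, or 65.7%. Gaps were allowed and not counted, and by the same method Lilr4b on chromosome 10 was identical to Pirb at 61.9%. The windows of Pirb, Pira2 and Lilra6 each held 3 matches to the 6 letters and that of Lilra5 held 1. The windows of Pirb, Pira2 and Lilra6 are near-identical copies, so their matches are not independent of each other. At least 1 match occurred in 23.3% of the 32851 windows of this length in the RefSeq table, and 3 or more in 0.429%. A match is a string of letters and was not tested as a binding site. Lilrb4a had no entry in the table.

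The near-identity extends into the transcripts and bears on every count below. Of all 50-base windows in the transcripts of Pira2, 93.0% also occurred in a transcript of another gene, and 82.6% occurred in Gm15922 alone, a polymorphic pseudogene that RefSeq names Pira1. The share was 47.2% for Lilrb4a, 34% for Pirb and 31.3% for Lilra6. It was 0% for Lilra5, which has no close copy. With 100-base windows these shares were 84.1% for Pira2, 35.2% for Lilrb4a, 20.8% for Pirb, 11.9% for Lilra6 and 0% for Lilra5. The share of Lilrb4a includes overlap at its own locus, where 1874 of its exonic bases overlap exons of the annotated genes Gm49339 and Gm40645. Gm49339 held 33.7% of the 50-base and 31% of the 100-base windows of Lilrb4a. Lilr4b, a related gene on chromosome 10, held 26.1% and 9.67%. The sources used here give neither the read length nor how strand and reads with several matches were handled. A count for Pira2 may therefore rest on a small part of the gene, or hold reads of a copy, and the counts of the copies cannot be fully told apart.

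**Figure D1:**
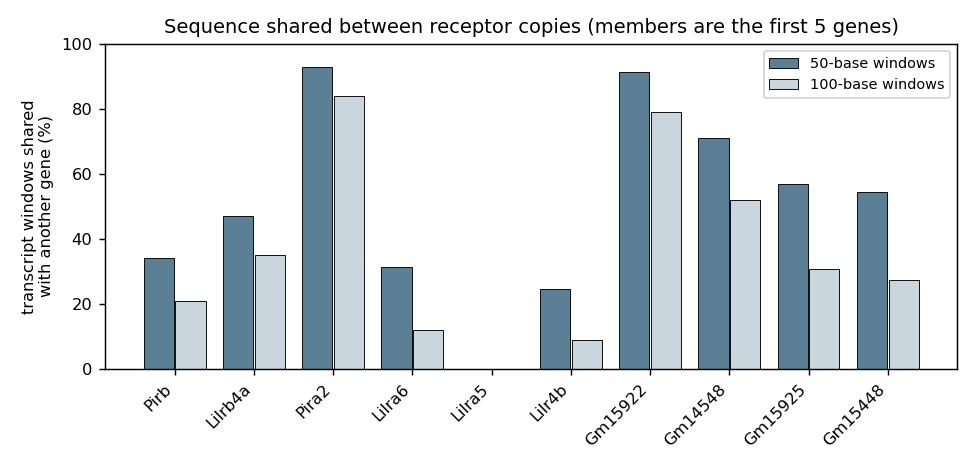
Percent of transcript windows (y axis) of each receptor gene (x axis) that also occur in a transcript of another gene, for windows of 50 bases (dark bars) and 100 bases (light bars). Pira2 reaches 93.0% and 84.1%, and Lilra5 has no bar because its value is 0 for both lengths.

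Spleen libraries held 16493694 to 20352346 counts in total, and macrophage libraries 18107264 to 33844807. Summed levels of 10 red pulp macrophage markers, of which Clec4f was at 0 in every macrophage library, were 14699.7 to 20731 CPM in macrophage air and 216 to 479 CPM in spleen air. Levels in CPM are a gene's count divided by the TMM-scaled size of its library, with scaling over all 18 libraries. The macrophage preparations were not pure: 7 B cell markers summed to between 2104 and 3730.3 CPM there. Spleen air replicates 3 and 4 stood apart by 5 liver markers, which summed to 36.6 and 68.3 CPM against at most 7.89 CPM in any other library. Mesothelial markers summed to 2.75 to 5.29 CPM in spleen air and 37.5 to 217 CPM in spleen PM2.5.

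Every member had a higher level in the macrophage libraries than in the spleen libraries, with no overlap between the materials, as had 18% of the 17779 genes in the fit of all libraries. Pirb was the most abundant, at 71.6 ± 7.0 CPM in spleen air (SD, n = 4) and 407 ± 55.6 CPM in macrophage air (SD, n = 5), a ratio of 5.69. Lilrb4a had 15.9 ± 6.68 and 127 ± 15.6 CPM, a ratio of 7.97. Lilra6 differed least between the materials, with 4.86 ± 1.30 and 13.2 ± 2.35 CPM and a ratio of 2.71. Pira2 had 1.68 ± 0.383 CPM in spleen air and 148 ± 16.5 CPM in macrophage air, a ratio of 88.1. Under PM2.5 the ratio of macrophage to spleen was 29.7 for Pira2, 5.04 for Lilrb4a, 4.23 for Pirb and 2.12 for Lilra6. Material and experiment cannot be told apart in these ratios, and neither can a difference in read length between the experiments.

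Lilra5 was close to absent from whole spleen. It had 0, 3, 0 and 8 counts in the 4 spleen air libraries and 15, 0, 23 and 27 counts in the 4 spleen PM2.5 libraries. A count of 0 allows up to 3 counts in that library, by counting error alone. In macrophages it had 30.5 ± 4.42 CPM under air, from 504 to 740 counts per library, and 28.7 ± 5.25 CPM under PM2.5. Because it shares no window with another gene, its level is the one least open to loss of reads between copies.

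Levels of different genes were compared per kilobase of exon. In macrophage air the order was Pirb with 91.0 ± 12.4 CPM per kilobase, Pira2 with 42.7 ± 4.76, Lilrb4a with 24.2 ± 2.98, Lilra5 with 14.5 ± 2.10 and Lilra6 with 4.32 ± 0.771 (SD, n = 5), and no neighbours overlapped. Macrophage PM2.5 had the same order, with Pira2 and Lilrb4a overlapping. In spleen air Pirb had 16 ± 1.57 CPM per kilobase, Lilrb4a 3.04 ± 1.28, Lilra6 1.59 ± 0.426, Pira2 0.485 ± 0.111 and Lilra5 0.0692 ± 0.0982 (SD, n = 4), and only Lilrb4a and Lilra6 overlapped. Per kilobase, Pira2 thus ranked just below Pirb in macrophages and below Lilrb4a and Lilra6 in spleen. The place of Pira2 in both materials depends on the shared sequence. Per 1000 windows of 50 bases found in no other gene, Pira2 had 606 CPM in macrophage air and Pirb 133 CPM. With 100-base windows these were 268 and 106 CPM. In spleen air Pira2 had 6.88 CPM per 1000 such 50-base windows, Lilrb4a 5.22 and Lilra6 2.19. With 100-base windows Pira2 had 3.04 CPM there, Lilrb4a 3.92 and Lilra6 1.63.

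**Figure D2:**
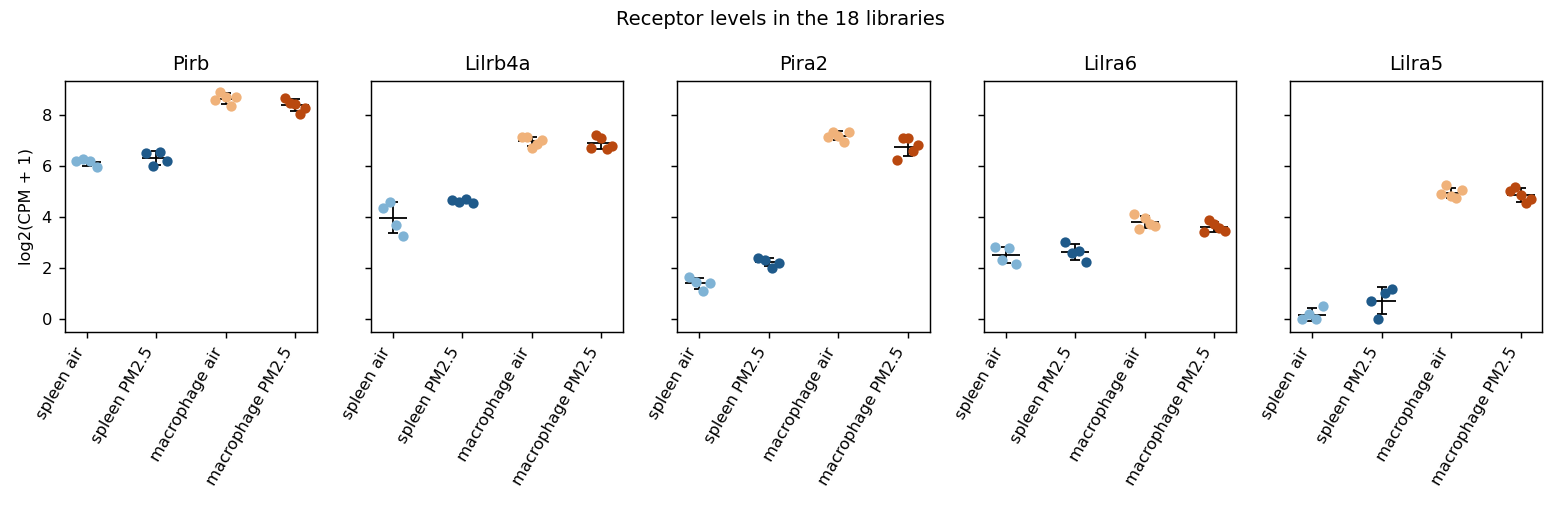
Level of each receptor as log2(CPM + 1) on the y axis in the 18 libraries, by group on the x axis, where points are libraries and black lines are the mean and SD. The macrophage libraries lie above the spleen libraries in all 5 panels, and Pira2 alone has spleen PM2.5 libraries that lie wholly above the spleen air libraries.

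In whole spleen, Pira2 was the member with the largest fitted difference between the exposures. Its level in CPM was 2.11, 1.78, 1.18 and 1.65 in the 4 air libraries and 4.34, 3.99, 3.06 and 3.64 in the 4 PM2.5 libraries. The groups did not overlap, which was also true, in the same direction, of 4.31% of the 16551 genes tested. These levels rest on 25 to 37 counts per air library and 68 to 104 counts per PM2.5 library. The fitted log2 fold change, PM2.5 minus air, was 1.16 (SE 0.31).

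The inhibitory members differed less in spleen. Lilrb4a had 19.6, 23.2, 12 and 8.73 CPM under air and 24.3, 23.4, 25.5 and 22.6 CPM under PM2.5, with a log2 fold change of 0.59 (SE 0.264). The air libraries with low values were replicates 3 and 4, those with liver transcripts, and without both the log2 fold change was 0.17. Pirb had 61.4 to 77.4 CPM under air and 63.8 to 94.4 CPM under PM2.5, and its log2 fold change was 0.17 (SE 0.139). The ranges of Pirb and of Lilrb4a overlapped between the exposures.

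Lilra6 had 3.51 to 6.08 CPM under air and 3.78 to 7.06 CPM under PM2.5, with a log2 fold change of 0.14 (SE 0.288) that became -0.03 without spleen PM2.5 replicate 1. Lilra5 did not pass the filter on low counts in spleen, so 4 of the 5 members were tested there. None of the 4 passed an adjusted p of 0.05 in edgeR's quasi-likelihood test, where 2 of 16551 genes, or 0.0121%, did. At an unadjusted p below 0.05 were 2 of the 4, Pira2 and Lilrb4a, and 16.7% of all genes. In the edgeR fit of all 18 libraries, which called 5.91% of genes in spleen, Pira2 passed. With DESeq2, which called 5.01% of genes, 1 of the 4 passed, Pira2. Since the list was made with this contrast known, these counts say nothing about the family.

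Markers of several cell types had other levels in the same PM2.5 spleens. Of 10 red pulp macrophage markers 9 were tested, all 9 had a higher fitted level under PM2.5 (median 0.96 on the log2 scale), and none passed. They summed to 216 to 479 CPM in air libraries and to 381 to 635 CPM in the PM2.5 libraries. Neutrophil markers summed to 17.8 to 99.0 CPM in air libraries, with Ly6g at 0 in every air library, and 30.3 to 227 CPM in PM2.5. Of the 8 tested, 7 had a higher fitted level under PM2.5, with a median of 1.56, and none passed. All 8 erythroid markers had a higher fitted level under PM2.5, with a median of 3.68 on the log2 scale. They summed to 157 to 1558 CPM in air libraries, and to 431, 7954, 2215 and 5438 CPM in PM2.5 replicates 1 to 4. Monocyte markers summed to 988 to 1155 CPM and 955 to 1091 CPM, and B cell markers to 5441 to 6267 CPM and 3808 to 5345 CPM. The part of these cells in the receptor values was not tested, and in bulk RNA more cells of a type and more RNA per cell cannot be told apart.

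In isolated macrophages the fitted values of all 5 members were lower under PM2.5. Pira2 had 140.3, 164, 147, 125 and 163 CPM in the 5 air libraries and 75.1, 137, 136, 95.6 and 114 CPM in the 5 PM2.5 libraries. Replicates 1, 4 and 5 of PM2.5 lay below every air library and replicates 2 and 3 lay within the air range. The log2 fold change of Pira2 was -0.40 (SE 0.152), -0.30 (SE 0.115) without PM2.5 replicate 1, whose labels disagree, and -0.18 (SE 0.188) with that library counted as air.

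Pirb had 386, 478, 425, 327 and 419 CPM under air and 414, 359, 353, 266 and 316 CPM under PM2.5, with a log2 fold change of -0.25 (SE 0.127). Here replicate 1 was the highest PM2.5 library, whereas for Pira2 it was the lowest. The log2 fold change was -0.21 (SE 0.144) for Lilra6, -0.08 (SE 0.136) for Lilra5 and -0.06 (SE 0.123) for Lilrb4a. Lilrb4a changed sign, to 0.01, when replicate 1 was counted as air. The exposures overlapped for all 5 members, where 2.24% of all genes had groups that did not overlap.

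None of the 5 passed in edgeR's quasi-likelihood test, and neither did any of the 15696 genes tested, or 0%. Of the members 1, Pira2, and of all genes 1704, or 10.9%, had an unadjusted p below 0.05, and DESeq2 called 175 genes, or 1.11%, none of them a member. Conventional dendritic cell markers summed to 672 to 1113 CPM in air libraries and 599 to 789.7 CPM in PM2.5 libraries. Of these 8 markers 7 had a lower fitted level under PM2.5, with a median of -0.38 on the log2 scale. Monocyte markers summed to 4774 to 6592 CPM in air libraries and 3979.9 to 5130.2 CPM in PM2.5 libraries. Of the 10 tested, 7 had a higher and 3 a lower fitted level under PM2.5, with a median of 0.20. Neutrophil markers summed to 150.2 to 233 CPM and 138 to 355 CPM. Of the 11 tested, 10 had a higher fitted level under PM2.5, with a median of 1.52. All 6 plasma cell markers had a higher fitted level under PM2.5, with a median of 0.61, and summed to 761 to 2266 CPM and 1374 to 4484 CPM. None of these markers passed. Red pulp macrophage markers had 8 of 9 lower fitted values, with a median log2 fold change of -0.22, and none passed. The part of these cells in the receptor values was not tested.

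The fitted PM2.5 effect was positive in spleen and negative in macrophages for all 4 members tested in both, although Lilra6 in spleen and Lilrb4a in macrophages lost their sign under an alternative given above. Of all genes tested, 51.8% had a positive effect in spleen and 51.4% in macrophages, and the share with this pair of signs was not counted. Pirb, Pira2 and Lilra6 share windows, so their signs are not independent. The difference of the log2 fold changes, macrophage minus spleen, was -1.58 (SE 0.261) for Pira2, -0.66 (SE 0.286) for Lilrb4a, -0.43 (SE 0.198) for Pirb and -0.35 (SE 0.291) for Lilra6. Lilra5 failed the filter in spleen and entered the fit of all 18 libraries only through its macrophage counts, so its fitted value is not read as a difference. Of the other 4 members 1, Pira2, passed an adjusted p of 0.05 in edgeR's quasi-likelihood test, with a lower effect in macrophages, as did 1.04% of the 17779 genes tested (1.46% in either direction). This contrast too was known when the list was made. The fit of all 18 libraries used 1 estimate of each gene's spread for all 4 groups. Its SE for the difference of Pira2, 0.261, was below the SE of 0.31 in the spleen fit alone. Pira2 no longer passed in limma-voom, at a difference of -1.62 (SE 0.44), or without spleen air replicates 3 and 4 together, at -1.35.

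**Figure D3:**
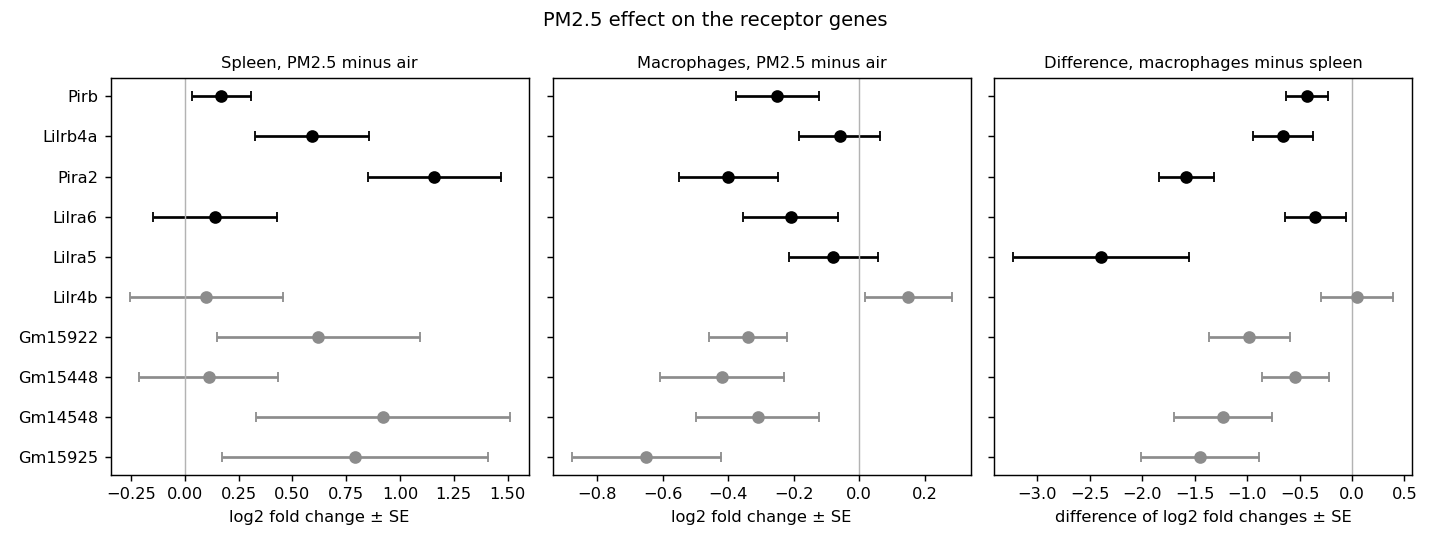
Log2 fold change of each receptor gene, PM2.5 minus air, in spleen (left) and macrophages (centre), and the difference of both (right), where points are fitted values and bars are ± 1 SE. Black points are members and grey points are other genes of the family, and Pira2 has 1.16, -0.40 and -1.58 in the 3 panels. The Lilra5 point at the right rests on spleen counts near 0 and is not read as a difference.

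**Figure D4:**
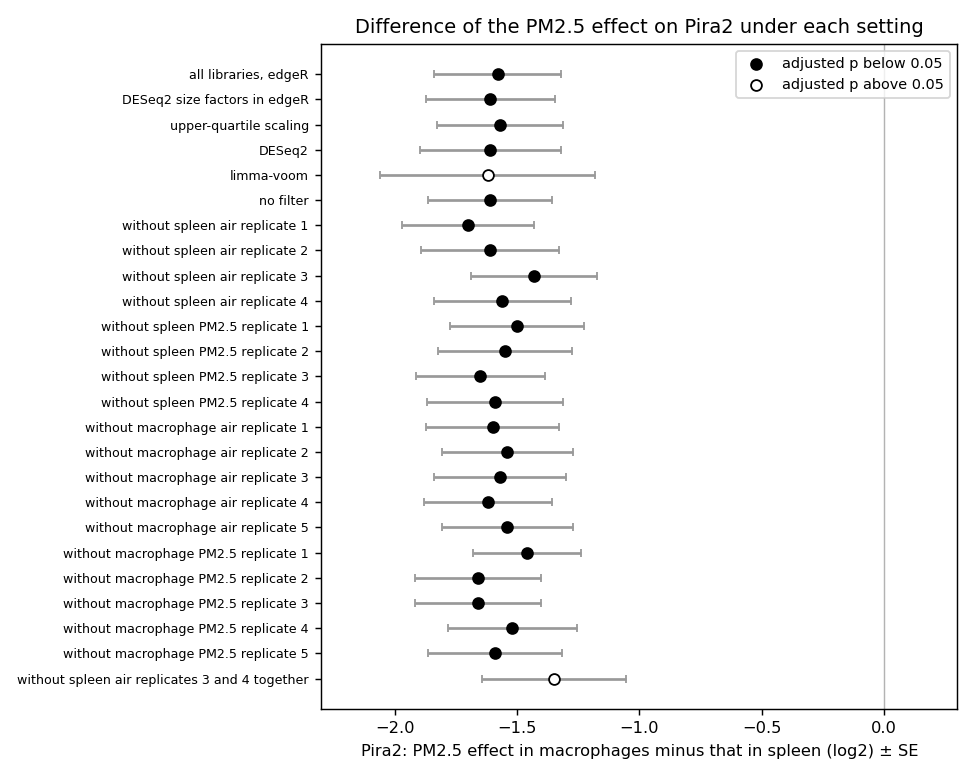
Difference of the PM2.5 effect on Pira2 between macrophages and spleen (x axis, log2, with ± 1 SE) under each analysis setting (y axis). All values lie between -1.70 and -1.35, and the open circles are the settings in which the adjusted p was above 0.05.

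The balance of the activating and the inhibitory gene was described by the share of Pira2 in the summed counts of Pira2 and Pirb. Scaling of the libraries does not enter this share, though the reads lost to other copies do. It was 2.76%, 2.25%, 1.59% and 2.61% in the spleen air libraries and 4.55%, 5.88%, 3.14% and 4.70% in the spleen PM2.5 libraries. All 4 PM2.5 spleens lay above all 4 air spleens, with means of 4.57 ± 1.12% and 2.30 ± 0.525% (SD, n = 4). The nearest libraries were not apart by counting error, since spleen air replicate 1 had a 95% Wilson interval of 1.99% to 3.82% and spleen PM2.5 replicate 3 one of 2.48% to 3.96%.

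In macrophages the share was far larger and nearly constant. It was 26.7%, 25.6%, 25.7%, 27.6% and 28.0% in the air libraries, a mean of 26.7 ± 1.10% (SD, n = 5). Under PM2.5 it was 27.6%, 27.9%, 26.4% and 26.5% in replicates 2 to 5, all inside the air range. PM2.5 replicate 1 stood apart at 15.3% (1242 of 8093 counts, 95% Wilson interval 14.6% to 16.1%). The mean under PM2.5 was 24.7 ± 5.29% (SD, n = 5), and 27.1 ± 0.736% (SD, n = 4) without that library. Wilson intervals cover counting error only.

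**Figure D5:**
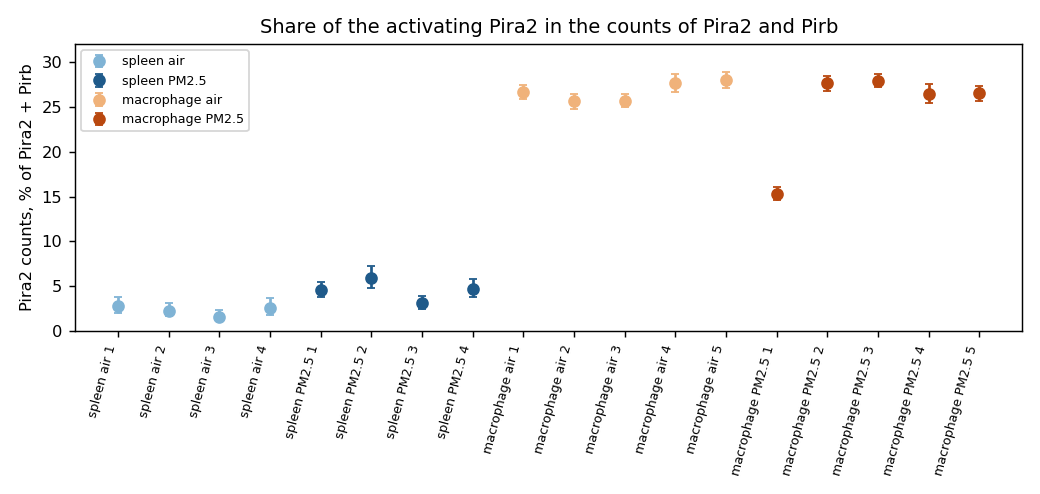
Share of Pira2 in the summed counts of Pira2 and Pirb (y axis, percent) in each of the 18 libraries (x axis), with 95% Wilson intervals as bars. Macrophage libraries lie between 25.6% and 28.0% except PM2.5 replicate 1 at 15.3%, and spleen PM2.5 libraries lie above spleen air libraries.

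The other copies differed in the same library, which also stood apart over all genes: its chi-square per degree of freedom against the other 4 libraries of its group was 64.3 to 104, where those 4 had 15.3 to 55.5 among themselves. Its plasma cell markers summed to 4484 CPM, the highest of the 18 libraries. They summed to 3981 CPM in macrophage PM2.5 replicate 4, where Pira2 made up 26.4% of the Pira2 and Pirb counts. The part of these differences in the receptor counts of replicate 1 was not tested. Among the summed counts of the 9 chromosome 7 copies, Pirb made up 75.7% in macrophage PM2.5 replicate 1, the highest share of its group. The group mean, with that library included, was 64.5 ± 6.34% (SD, n = 5). Pira2 made up 13.7% there, Gm15922 3.96%, Gm15448 2%, Lilra6 1.77%, Gm14548 1.61% and Gm15925 0.995%, each the lowest share of its group. Gm10693, at 0.21%, was not the lowest. These shares have 1 total, so a high share of Pirb by itself lowers the shares of the other copies. In macrophage air Pirb made up 62.2 ± 1.73%, Pira2 22.7 ± 1.02% and Gm15922 5.37 ± 0.322% (SD, n = 5). In spleen air Pirb made up 84.6 ± 2.51% and Pira2 1.99 ± 0.424% (SD, n = 4).

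The genes between the outermost chromosome 7 members, with Lilr4b on chromosome 10, numbered 24 besides the members, and 11 were tested in each experiment. None passed in either experiment or in their difference in edgeR's quasi-likelihood test, and 0 in spleen and 4 in macrophages had an unadjusted p below 0.05, beside 16.7% and 10.9% of all genes. Gm15922, the gene closest to Pira2, had a log2 fold change of 0.62 in spleen and -0.34 in macrophages. Gm14548 had 0.92 and -0.31, Gm15925 had 0.79 and -0.65, and Gm15448 had 0.11 and -0.42. All 4 had opposite signs in the 2 materials, as Pira2 did, except that Gm15448 was -0.02 in spleen without spleen air replicate 4, and all share windows with it, so their counts are not independent of its counts. Lilr4b, which encodes gp49A, the partner of gp49B without inhibitory motifs, had 0.10 and 0.15. When the counts of the 4 chromosome 7 members were summed before the fit, the difference between the materials was -0.49 (SE 0.183), and with all 9 copies summed it was -0.53 (SE 0.177), and neither passed.

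The partners of the receptors were read from lists of signalling molecules and ligands. Of 13 activating signalling genes, 4 had higher and 9 lower fitted values in spleen, with a median log2 fold change of -0.10, and 5 and 8 in macrophages, with a median of -0.05. None passed in edgeR with each experiment fitted alone, or in DESeq2. In each material 1 had an unadjusted p below 0.05, beside 16.7% of all genes in spleen and 10.9% in macrophages. The median over all genes tested was 0.02 in spleen and 0.01 in macrophages. Fcer1g, the adaptor of PIR-A, had a log2 fold change of 0.10 (SE 0.209) in spleen and -0.12 (SE 0.135) in macrophages. Hcst, the adaptor DAP10, had the smallest p of the list in spleen, at 60.2 ± 14.0 CPM in air spleens and 39.9 ± 5.34 CPM in PM2.5 spleens (SD, n = 4), and an edgeR adjusted p of 0.15, which was 0.0416 in the fit of all 18 libraries and 0.0475 without spleen air replicate 2. Lyn, a kinase that phosphorylates the inhibitory motifs, had 795 ± 59.9 and 692 ± 32.6 CPM in macrophages (SD, n = 5), with an edgeR adjusted p of 0.39.

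Of 8 inhibitory signalling genes, 7 were higher and 1 lower in spleen, with a median of 0.07, and 3 and 5 in macrophages, with a median of -0.04. Within either material none passed in edgeR or DESeq2 or had an unadjusted p below 0.05. In the difference between the materials none passed in edgeR and 1 had an unadjusted p below 0.05. DESeq2 called 1 there, beside 5.87% of all genes. Ptpn6 had 573 ± 49.3 CPM in spleen air and 544 ± 62.6 CPM in spleen PM2.5 (SD, n = 4), and 629 ± 42.3 and 611 ± 41.5 CPM in macrophages (SD, n = 5). Inpp5d, the lipid phosphatase SHIP-1, had log2 fold changes of 0.10 and -0.16. Sh2d1b1, a small signalling adaptor, had 2.45 ± 0.905 and 4.49 ± 2.20 CPM in spleen (SD, n = 4), with an edgeR adjusted p of 0.314.

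Of 14 ligand genes, 9 were higher and 5 lower in spleen, with a median of 0.08, and 10 and 4 in macrophages, with a median of 0.12. None passed in edgeR with each experiment fitted alone. In each material 1 had an unadjusted p below 0.05, beside 16.7% of all genes in spleen and 10.9% in macrophages. DESeq2 called 1 in spleen and 0 in macrophages, beside 5.01% and 1.11% of all genes. H2-K1, a classical MHC class I gene, had log2 fold changes of -0.05 (SE 0.155) and 0.12 (SE 0.115). Angptl2, an angiopoietin-like protein described as a ligand of PIR-B, had 11.2 ± 1.66 CPM in spleen air and 21.6 ± 7.0 CPM in spleen PM2.5 (SD, n = 4), and an edgeR adjusted p of 0.124, which was 0.0259 in the fit of all 18 libraries and 0.0296 without the filter on low counts. H2-Q7, a non-classical class I gene, had 82.1 ± 19.8 and 109 ± 24.8 CPM in macrophages (SD, n = 5), with an edgeR adjusted p of 0.446.

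Of 32 other paired receptors of myeloid cells, 29 were tested in spleen and 20 of them were higher under PM2.5 (median 0.28 on the log2 scale). In macrophages 31 were tested and 21 were lower, with a median of -0.12, and none passed in edgeR with each experiment fitted alone. At an unadjusted p below 0.05 were 7 in spleen and 6 in macrophages, beside 16.7% and 10.9% of all genes. DESeq2 called 2 and 0, beside 5.01% and 1.11% of all genes. The edgeR fit of all 18 libraries called 4 in spleen, beside 5.91% of all genes. In the difference between the materials 3 of 31 passed, all with a lower effect in macrophages, beside 1.04% of all genes in that direction. Treml4, an immunoglobulin-like receptor also listed as a red pulp macrophage marker, had 5.29 ± 2.52 and 10.3 ± 2.62 CPM in spleen air and PM2.5 (SD, n = 4), and 418 ± 56.0 and 336 ± 46.9 CPM in macrophages (SD, n = 5). The difference was -1.29 for Treml4, -0.87 for Clec4a1 and -1.18 for Clec4a2, the last 2 being C-type lectin receptors. The edgeR adjusted p was 0.0478, 0.0478 and 0.0483. DESeq2 called 5 of this list in the difference, and 5.87% of all genes. None of the list passed in limma-voom, without spleen air replicates 3 and 4 together, or without spleen air replicate 3 or 4, spleen PM2.5 replicate 3 or 4, any 1 of the 5 macrophage air libraries, or macrophage PM2.5 replicate 3, 4 or 5.

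The genes whose pattern was most like that of the receptors were found from the mean log2(CPM + 1) of the 4 members kept in both experiments, centred within each group. Among 10232 genes the closest were Tmem87b, with Pearson r of 0.85 over 18 libraries (Spearman rho 0.82), and P2rx7, with r of 0.85 (rho 0.85). P2rx7 encodes an ATP-gated ion channel of macrophages and lymphocytes. Ipo7 and Gnpda1 had r of 0.81, and Ctnnb1, which encodes beta-catenin, and Acsl3 had r of 0.80. For these 6 genes r was 0.83 to 0.93 in the 8 spleen libraries and 0.63 to 0.80 in the 10 macrophage libraries. These were the highest of 10232 values and are a description with no p, and the libraries share their scaling.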

How the data were processed

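The authors deposited 1 table of unnormalized read counts for each Ensembl gene. FastQC 0.10.1, HTSeq 0.10.0 and the builds mm10 and GRCm38 are named per the submitters' processing notes. Per the labels' protocols, a Qiagen RNeasy kit gave the RNA and a NEBNext Ultra II kit the libraries. Aligner, read length, annotation release and strand setting: not given in the sources used here. Symbols came from GENCODE M21, which matched 52133 of 55414 rows, and promoter windows came from RefSeq.

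Genes were kept by filterByExpr (minimum count 10, minimum total 15), scaled by TMM and tested in R 4.3.3 with edgeR 4.0.16, quasi-likelihood, two-sided, with Benjamini-Hochberg adjustment over all genes at a threshold of 0.05. The experiments were fitted separately, and their difference in 1 fit of 18 libraries. Alternatives were other scalings, DESeq2 1.42.0, limma-voom (limma 3.58.1), no filter, summed copies, a replicate block, the joint fit and omission of libraries. The sum of all 9 copies was an alternative chosen after seeing the data. The steps were checked on simulated counts with known changes. Of 2-fold changes 41.8% were recovered in spleen, 83.6% in macrophages and 38.8% in the difference. Of 1.5-fold changes 7.46%, 44.8% and 1.49% were recovered. Of the genes called, 7.61%, 3.87% and 2.63% had no planted change. Changes of these sizes were thus often missed, and a gene that did not pass is not shown to be unchanged.

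The members and gene lists were chosen with earlier results of these data known. Named were the members, other genes of the family, the genes with the smallest p of each list (3 per list and experiment, of which examples are given), list members that passed, and the 6 genes with the pattern most like the members among genes with a mean of at least 5 CPM in each material. Fcer1g and H2-K1 were named as partners of the receptors outside that rule. No 2 libraries of a group were copies of each other. The labels call the samples biological replicates, and p-values measure the spread between them.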

Additional observations from a re-analysis of the deposited data

Results flagged for a closer look

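Pira2 made up 15.3% of the summed counts of Pira2 and Pirb in macrophage PM2.5 replicate 1, far from the other 4 libraries of its group, which lay between 26.4% and 27.9%. Among 24 sets of values examined in this way it was the only one, and chance alone gives about 1 in 20. The treatment tag of this library reads air, against its title, and the macrophage air libraries lay between 25.6% and 28.0%, so the value is outside both groups. The library also stood apart over all genes, with a chi-square per degree of freedom of 64.3 to 104 against the other 4, which had 15.3 to 55.5 among themselves.

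The PM2.5 effect on Pira2 differed between the materials by -1.58 on the log2 scale, macrophage minus spleen, by the test of the difference itself. All 4 spleen PM2.5 libraries lay above all 4 air libraries, as was true of 4.31% of the 16551 genes tested in spleen. In macrophages 3 of 5 PM2.5 libraries lay below all 5 air libraries, and the share of all genes with that pattern was not counted. The contrast was known when Pira2 was chosen, so the test is no independent support.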

How the results depend on the processing

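Whether equal replicate numbers pair the samples is not stated, and correlations between so few libraries cannot settle it. The correlation of same-numbered deviations was between -0.141 and 0.0754 in spleen and between -0.148 and 0.335 in macrophages. In spleen 1 of 4 numbers matched best with itself. In macrophages 2 of 5 did, replicates 4 and 5, at 0.335 and 0.301. With a replicate block the spleen comparison called 3 genes against 2, the macrophage comparison 0 as without it, and no member passed in either (Pira2 1.17 and -0.43).

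Counts over all genes moved most. Spleen gave 1 gene with DESeq2's size factors, 830 with DESeq2, 1 with limma-voom, 461 without a filter, 1050 in the joint fit, and 0 without spleen air replicates 3 and 4 or without spleen PM2.5 replicates 2 and 4, and 0 to 219 with 1 library left out. Macrophages gave 175 with DESeq2, 1 without a filter and 0 to 17 with 1 library left out. The difference gave 1044 with DESeq2, 3 with limma-voom, 9 without spleen air replicates 3 and 4, and 68 to 1317 with 1 library left out. Of the members, 1 (Pira2) passed in spleen with DESeq2 and 1 in the joint fit. In the difference 0 passed with limma-voom and 0 without spleen air replicates 3 and 4, and 1 to 2 with 1 library left out. The added member was Lilrb4a without spleen air replicate 2. Without spleen PM2.5 replicate 2 it was Lilra5, which failed the filter in spleen and is not taken as a call. The causes were not tested.

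Signs turned in few cases, all of values that passed no test. In spleen, leaving out 1 library gave ranges of -0.03 to 0.28 for Lilra6, -0.12 to 0.37 for Lilr4b and -0.02 to 0.25 for Gm15448. Lilr4b was -0.27 without spleen air replicates 3 and 4, and Ptpn6 0.07 without spleen PM2.5 replicates 2 and 4. In macrophages Lilrb4a was 0.01 with PM2.5 replicate 1 counted as air, and the pseudogene Gm10693 ranged from -0.07 to 0.12 with 1 library left out. In the difference Lilr4b was -0.03 with limma-voom and ranged from -0.23 to 0.28 with 1 library left out. Scaling by total counts alone gave 27.9 CPM for Lilrb4a and 4.38 CPM for Pira2 in spleen PM2.5, against 24.0 and 3.76, and moved no other level of a member by over 1 SD. Depth limits Lilra5 and Pira2 in spleen, which had at most 27 and 104 counts per library.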
